A study of Homo sapiens with 4 samples.

Results

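The MAGE family and PRAME are tumour antigens, and 10 of their genes were followed in gene counts of A375, a human melanoma line with an activating BRAF mutation. They are MAGEA1, MAGEA3, MAGEA4, MAGEA10, MAGEA12, MAGEC1, MAGEC2, MAGED1, TRO and PRAME, out of 62649 genes in the count files. These genes were chosen by name with their CPM (read counts scaled to library size) in resistant against control cells already known, so the values of that contrast are given here as a description, with no test. The control group is the parental line (2 libraries). The resistant group (2 libraries) is the same line after weekly stepwise exposure to vemurafenib, a drug that blocks mutant BRAF, starting at 0.1 and ending at 6.4 µM. Both groups carry the BRAF mutation of A375, and the labels do not say whether the drug was still present when RNA was taken. The labels do not tell separate cultures from repeat libraries of 1 culture, so the p-values reflect how far these libraries lie apart, and that spread may be technical.

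MAGE genes share a conserved domain through which their proteins bind RING-type ubiquitin ligases and steer them to substrates. Type I genes (the MAGE-A, MAGE-B and MAGE-C subfamilies) lie on chromosome X, are normally expressed in testis germ cells, are held silent by promoter methylation in most other tissues and are often reactivated in melanoma, where peptides of their proteins are shown to T cells by HLA class I. Type II genes, such as MAGED1 and TRO, are expressed in many normal tissues. PRAME is a leucine-rich repeat protein of the same cancer-testis class, unrelated to MAGE in sequence, that serves as a substrate receptor of a cullin ubiquitin ligase, represses retinoic acid receptor signalling and is stained in the diagnosis of melanoma.

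The copies of MAGE-A genes differ by few bases, and a read that maps to several of them was not counted. The coding stretch below is the 60-base window in which MAGEA3 differs most from its near-copy MAGEA6. It is shown for the members of the subfamily and for MAGEA6, 5′ to 3′ on the strand of each gene, from GENCODE release 29 transcripts on GRCh38, and capitals mark bases that differ from MAGEA3. The MAGEA3 window holds coding bases 573 to 632 at chrX:152701405-152701464 on the plus strand. The others lie at chrX:152767019-152767078 (MAGEA6, minus strand), chrX:152736734-152736793 (MAGEA12, plus), chrX:151924240-151924299 (MAGEA4, plus), chrX:153182941-153183000 (MAGEA1, plus) and chrX:152134914-152134973 (MAGEA10, minus).
MAGEA3: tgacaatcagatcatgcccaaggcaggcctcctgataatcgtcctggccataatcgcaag
MAGEA6: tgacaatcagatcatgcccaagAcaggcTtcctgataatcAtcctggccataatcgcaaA
MAGEA12: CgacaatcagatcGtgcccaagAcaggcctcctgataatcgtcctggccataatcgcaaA
MAGEA4: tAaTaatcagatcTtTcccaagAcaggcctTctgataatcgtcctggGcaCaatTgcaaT
MAGEA1: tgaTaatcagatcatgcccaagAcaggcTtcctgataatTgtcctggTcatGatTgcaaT
MAGEA10: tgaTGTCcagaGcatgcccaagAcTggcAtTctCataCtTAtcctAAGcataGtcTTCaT
Even in this window MAGEA6 differed from MAGEA3 at 4 bases, as did MAGEA12, whereas MAGEA1 differed at 8, MAGEA4 at 10 and MAGEA10 at 21. Over the whole coding sequence MAGEA3 and MAGEA6 were 98.1% identical, with 18 of 945 bases different and an identical run of 308 bases. MAGEA3 was 92.2% identical to MAGEA12, 82.4% to MAGEA4, 80.4% to MAGEA1 and 61.4% to MAGEA10. Gaps were counted as differences, which lowers the value for MAGEA10, whose coding sequence is longer at 1110 bases.

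The promoters of 5 members share short words next to the start of transcription. The windows of 30 bases below, from the RefSeq promoter table on GRCh38.p14 and written 5′ to 3′ on the strand of the gene, show 2 words in capitals: GGATGTG, which holds the GGAT form of the ETS core, and ACTTGCGCA. They lie at chrX:141903848-141903877 (MAGEC1, plus), chrX:142205269-142205298 (MAGEC2, minus), chrX:151912452-151912481 (MAGEA4, plus), chrX:152698706-152698735 (MAGEA3, plus) and chrX:152733743-152733772 (MAGEA12, plus).
MAGEC1: ccGGATGTGctttgccGGATGTGctttccc
MAGEC2: ccGGATGTGctttcccgacggccatcttgg
MAGEA4: ccGGATGTGacatccctgACTTGCGCAttg
MAGEA3: caGGATGTGacgccactgACTTGCGCAttg
MAGEA12: ccGGATGTGacgccactgacttgcgcgttg
GGATGTG was searched on both strands in the 300 bases around each start and was found in 10 of the 16 starts listed for 8 members, belonging to MAGEA3, MAGEA4, MAGEA12, MAGEC1 and MAGEC2. Of 35116 such windows over all genes, 4.29% hold GGATGTG and 0.142% hold ACTTGCGCA. The second word was found at 6 starts of MAGEA3 and MAGEA4. Several of the starts belong to MAGEA4, and both MAGEA12 starts hold the same GGATGTG site. The starts are thus not independent, and their number is no test against these shares. Neither word occurred in the windows of PRAME, MAGED1 or TRO. No start was listed for MAGEA1 or MAGEA10, so their promoters were not searched. A match is a description of the letters and shows no binding. Genes with the shared words stood at both ends of the expression range: MAGEA4, MAGEC2 and MAGEA3 had the highest levels of the 10 genes per kilobase, and MAGEC1 the lowest.

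The libraries held 68022689 to 87178097 counts assigned to genes. A count of 3, taken as the floor of detection for counting error only, corresponded to 0.0344 to 0.0441 CPM of these unscaled totals. Every count of control replicate 1 was even, so its independent depth may be lower than its total of 72290468. A biological coefficient of variation of 25.5% was fitted between replicates. Of 9 melanoma and neural crest markers, none was below 1 CPM in all libraries, and their summed level was 1938 and 3309 CPM in the controls and 3706 and 3529 CPM in the resistant libraries. All 10 germ cell markers, the normal cell type of type I genes, were below 1 CPM in every library and summed to 0.419 and 1.57 CPM in the controls and 0.829 and 1.14 CPM in the resistant libraries. All 7 leukocyte markers were also below 1 CPM, with sums of 1.26 to 2.72 CPM. These are bulk libraries, in which fewer cells expressing a gene and less RNA per cell cannot be told apart.

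Of the 10 genes, 6 stood within 1.5-fold of each other between the groups, at high or moderate levels: MAGEA4, MAGEC2, MAGEA3, PRAME, MAGEA12 and MAGEA10. TRO and MAGEA1 were at least 2-fold lower in resistant cells, and MAGED1 lay between. MAGEC1 was at or near the floor in 3 of 4 libraries and did not pass the filter on low counts, which the other 9 passed. TRO was the single member past an adjusted p of 0.05 (edgeR), a threshold that 1.09% of the 24961 tested genes passed, 0.513% in the lower direction and 0.577% in the higher. The 2 members at least 2-fold lower compare with 6.1% of tested genes, and 12.7% were at least 2-fold different in either direction. The libraries of the groups did not overlap for 3 members, all lower in resistant cells, against 44.6% of tested genes, 22.2% lower and 22.4% higher. The contrast was used in choosing the members, so these counts are no test and nothing is read from them. Summed over the 10 genes, the level was 1459 and 1074 CPM in the controls and 1123 and 1019 CPM in the resistant libraries, of which MAGEA4 alone made up 42.4% to 46.1%.

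**Figure D1:**
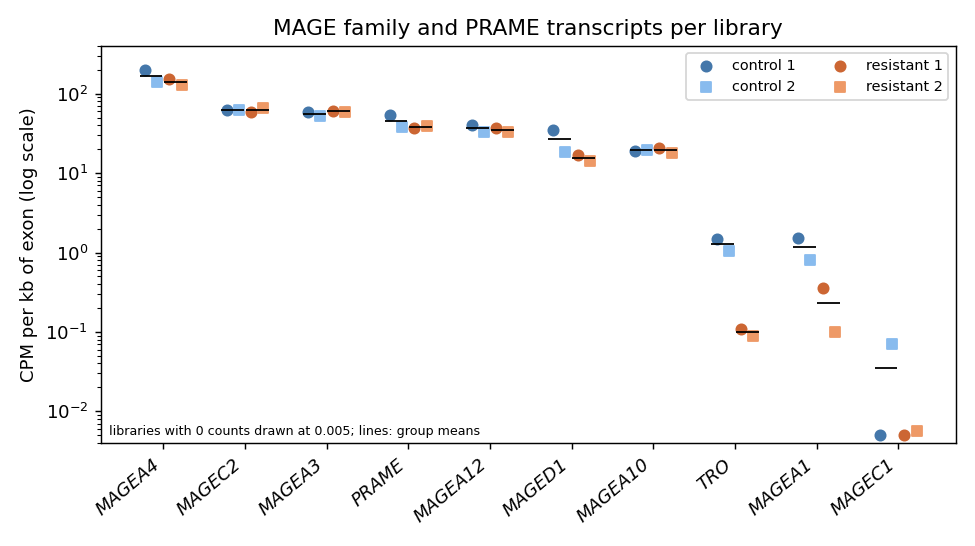
Level of each gene in CPM per kilobase of exon (log scale), 1 point per library, with a bar at the mean of each group of 2 and libraries at 0 placed as stated in the picture (the resistant mean of MAGEC1 lies below the axis and is not drawn). MAGEA4 lies highest in every library, 6 more genes lie between about 14.3 and 65.6 CPM per kilobase, and TRO, MAGEA1 and MAGEC1 lie far lower.

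MAGEA4, an antigen that is a target of engineered T cell receptors, was the most abundant of the 10 genes per length in every library. The gene spans chrX:151912495-151925171 on the plus strand. Its values were 672 and 471 CPM in the controls and 518 and 432 CPM in the resistant libraries. The groups overlapped, and control replicate 1 was the highest library. The means were 571 ± 143 CPM in controls and 475 ± 60.7 CPM in resistant cells (SD, n = 2 each). The fitted log2 difference, resistant over control, was -0.27 ± 0.22 (SE), and ranged from -0.50 to 0.01 as each library was left out.

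MAGEA3, the antigen used in vaccine trials in melanoma, stood at 105 and 92.2 CPM in the controls and 109 and 104 CPM in the resistant libraries. The gene spans chrX:152698767-152702347 on the plus strand. The groups overlapped, since resistant replicate 2 lay just below control replicate 1, and the log2 difference was 0.11 ± 0.16 (SE). Its near-copy MAGEA6, which was not among the members, stood at 67.7 and 58.7 CPM in the controls and 63.4 and 63.2 CPM in the resistant libraries. MAGEA6 did not pass the test, with a log2 difference of 0.00 and an adjusted p of 0.996 (edgeR quasi-likelihood test, Benjamini-Hochberg).

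The copies bear on these levels. With reads taken as 75 bases, 42.1% of the positions in MAGEA3 transcripts gave a read that also occurs in another gene, nearly all of them in MAGEA6, and 39.8% of MAGEA6 positions were shared in the same way. MAGEA10 shared 12.9%, all of it with the MAGEA10-MAGEA5 read-through gene, MAGEA12 shared 4.9%, MAGEA4 4.0% and TRO 0.9%, and MAGEA1, MAGEC1, MAGEC2, MAGED1 and PRAME shared none. The read length is not given in the labels, and the share for MAGEA3 was 56.5% with reads of 50 bases and 27.1% with reads of 150. Divided by the length that is unique at 75 bases, MAGEA3 reached 96.0 ± 8.70 CPM per kilobase in controls and 104 ± 3.39 in resistant cells (SD, n = 2 each). On that scale it passed MAGEC2, at 61.9 ± 0.404 and 62.4 ± 4.45 CPM per kilobase. The scale rests on the assumed read length and takes each read alone, without its mate.

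**Figure D2:**
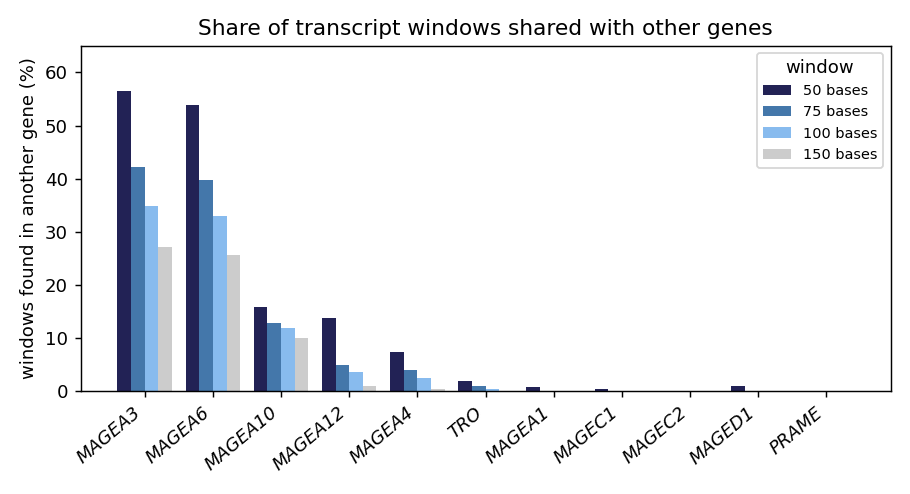
Share of each gene's transcript positions whose read of the given length also occurs in another gene, in percent, for several read lengths. MAGEA3 stands apart from the other members at each length, from 56.5% at 50 bases to 27.1% at 150 bases.

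MAGEA12 and MAGEA10 are further MAGE-A antigens recognised by T cells. MAGEA12, at chrX:152733757-152737669 on the plus strand, stood at 79.8 and 65.7 CPM in the controls and 72.0 and 64.6 CPM in the resistant libraries, a log2 difference of -0.09 ± 0.18 (SE). MAGEA10, at chrX:152133310-152138578 on the minus strand, stood at 55.1 and 57.1 CPM in the controls and 60.5 and 51.8 CPM in the resistant libraries. For MAGEA10 both control libraries lay between the resistant ones, and the group means were 56.1 ± 1.44 and 56.2 ± 6.16 CPM (SD, n = 2 each). Its exons overlap the read-through gene over 16.2% of their bases, where reads were assigned to neither.

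MAGEC2, whose protein pairs with the corepressor and ubiquitin ligase TRIM28, had close values in the 4 libraries. Its position is chrX:142202342-142205290 on the minus strand. Its levels were 123 and 124 CPM in the controls and 118 and 131 CPM in the resistant libraries, a log2 difference of 0.01 ± 0.16 (SE). Again the control libraries lay between the resistant ones. TRIM28 itself stood at 569 and 409 CPM in the controls and 397 and 402 CPM in the resistant libraries, and did not pass the test (log2 -0.29, adjusted p = 0.620, edgeR).

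MAGEC1, a close relative known as an antigen of myeloma, was at or near the floor. It carries GGATGTG 2 times in the promoter window printed above. Its position is chrX:141903894-141909374 on the plus strand. Control replicate 2 held 26 reads (0.300 CPM) and resistant replicate 2 held 2. Control replicate 1 and resistant replicate 1 held 0, which allows up to 0.0415 and 0.0441 CPM. For control replicate 1, whose counts are all even, the bound may be higher. One library of 4 was thus above the floor, and no fold change is given.

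PRAME, at chr22:22547701-22559361 on the minus strand, is the sole member outside chromosome X. Its levels were 203 and 144 CPM in the controls and 141 and 149 CPM in the resistant libraries. Control replicate 1 stood above the other 3 libraries, which lay close together, and the groups overlapped. Per kilobase PRAME averaged 45.5 ± 11.0 CPM in controls and 38.1 ± 1.52 CPM in resistant cells (SD, n = 2 each). The log2 difference was -0.26 ± 0.20 (SE). It was 0.01 without control replicate 1 and -0.48 without control replicate 2.

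**Figure D3:**
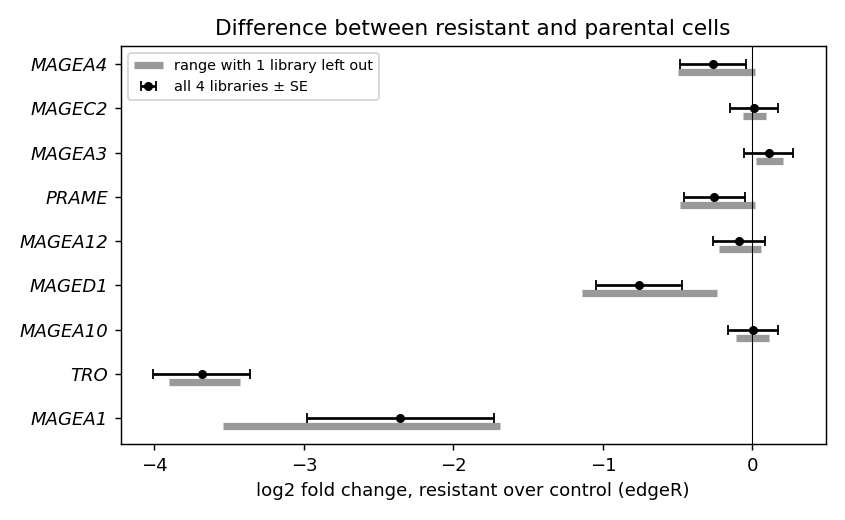
Fitted log2 difference between resistant and control cells for the 9 genes that passed the filter, with bars of 1 SE and the values obtained as each library is left out. MAGEA4, MAGEC2, MAGEA3, PRAME, MAGEA12 and MAGEA10 lie between -0.27 and 0.11, MAGED1 lies at -0.76, MAGEA1 at -2.36 and TRO at -3.69.

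TRO (trophinin), a MAGE-D relative named for its part in the adhesion of the embryo to the uterine wall, differed most between the groups. It lies at chrX:54920462-54931431 on the plus strand and was covered by 710 and 617 reads in the controls and by 52 and 49 reads in the resistant libraries. In CPM these were 9.91 and 7.12 against 0.731 and 0.592, means of 8.52 ± 1.98 and 0.662 ± 0.098 (SD, n = 2 each). Both resistant libraries lay below both controls and well above the floor. The log2 difference was -3.69 ± 0.33 (SE), or 12.9-fold lower, and stayed between -3.90 and -3.43 as each library was left out. Of its exonic bases 1.92% overlap another gene, SNORA11G.

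The genes beside TRO on chromosome X were looked at for the same contrast. Of 3 tested genes on each side, none passed the test. MAGED2, a type II relative 104 kb away, stood at 113 and 110 CPM in the controls and 106 and 119 CPM in the resistant libraries (log2 0.01, adjusted p = 0.983, edgeR). PFKFB1, a glycolytic regulator 1.53 kb away, had a log2 difference of 0.39 (adjusted p = 0.856), and ITIH6 one of 1.62 (adjusted p = 0.284). APEX2, a base excision repair enzyme, had a log2 difference of -0.40 (adjusted p = 0.417).

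MAGED1, a type II member known to bind the p75 neurotrophin receptor, stood at 209 and 112 CPM in the controls and 103 and 86.1 CPM in the resistant libraries. It lies at chrX:51803007-51902354 on the plus strand. The resistant libraries lay below both controls, as in 22.2% of tested genes, but control replicate 1 stood far above control replicate 2, which was close to resistant replicate 1. The means were 160.2 ± 68.9 and 94.5 ± 12.0 CPM (SD, n = 2 each). The log2 difference was -0.76 ± 0.29 (SE), and it was -0.24 without control replicate 1 and -1.14 without control replicate 2. NGFR, which encodes that receptor, stood at 31.1 and 18.3 CPM in the controls and 9.63 and 24.9 CPM in the resistant libraries, and did not pass the test (adjusted p = 0.692, edgeR).

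MAGEA1, a type I antigen that T cells of melanoma patients recognise, was the low member of the MAGE-A genes. It lies at chrX:153179284-153183880 on the plus strand and was covered by 188 and 120 reads in the controls and by 44 and 14 reads in the resistant libraries. These are 2.63 and 1.38 CPM against 0.619 and 0.169 CPM. Both resistant libraries lay below both controls, but the replicates of each group were themselves far apart. The log2 difference was -2.36 ± 0.62 (SE), or 5.12-fold lower, and its size rests on single libraries: it was -3.54 without resistant replicate 1 and -1.69 without resistant replicate 2. None of the 6 nearest tested genes, CETN2, NSDHL, ZNF185, ZNF275, TREX2 and HAUS7, passed the test, with log2 differences from -0.39 (ZNF185, adjusted p = 0.707, edgeR) to 0.59 (HAUS7, adjusted p = 0.518).

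In order of level per kilobase in controls, MAGEA4 came before MAGEC2, MAGEA3, PRAME, MAGEA12, MAGED1, MAGEA10, TRO, MAGEA1 and MAGEC1. The order depends on the exon length used, which joins all annotated exons of a gene: 3806 bases for PRAME, 1994 for MAGEC2 and 1773 for MAGEA3. In CPM not divided by length, PRAME (mean 173 in controls) stood above MAGEC2 (123) and MAGEA3 (98.5). MAGEA4 (169.6 ± 42.3 CPM per kilobase) did not overlap MAGEC2 (61.9 ± 0.404), nor did MAGEC2 overlap MAGEA3 (55.5 ± 5.04). Divided by the length unique at 75 bases, MAGEA3 (96.0 ± 8.70) instead stood above MAGEC2. On the scale of all exons, each gene from MAGEA3 to MAGEA10 overlapped the next in the control libraries. TRO at 1.27 ± 0.294 CPM per kilobase and MAGEA1 at 1.17 ± 0.513 (SD, n = 2) also overlapped. In resistant cells MAGEA10 stood before MAGED1, and MAGEA1 (0.230 ± 0.186 CPM per kilobase) before TRO (0.0985 ± 0.0146).

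The likeness of patterns across the 4 libraries was measured as the root mean square difference of centred log2(CPM + 0.5), over the members, the other MAGE genes, the PRAME relatives and the other cancer-testis genes. The smaller the value, the more alike the genes. For TRO the nearest genes were GAGE2A (0.730) and MAGEA1 (0.760), and for MAGEA1 they were GAGE2A (0.365) and SSX2 (0.435). For MAGED1 they were MAGEE1 (0.250) and MAGEA4 (0.261), and for PRAME they were LDHC (0.094) and MAGEA4 (0.121). The members near no difference were closest to other genes near no difference, such as MAGEC2 to CSAG1 (0.022) and MAGEA10 to LRRC14 (0.027). With 4 libraries in 2 groups, these values describe likeness and carry no test.

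Among the other MAGE genes, none passed the test in either direction. Of 18 other type I genes 6 passed the filter, with a median log2 difference of 0.37 beside 0.01 over all genes tested. None of the 6 had an unadjusted p below 0.05 (edgeR). The median rests partly on genes with few reads: per library, MAGEA8 held 0 to 14, MAGEC3 12 to 25 and MAGEA2B 12 to 32. The log2 difference of MAGEA8 was -0.45 once control replicate 1 was left out. No rise of these genes as a set is read from the median. MAGEA11, a coregulator of the androgen receptor, stood at 36.7 and 27.8 CPM in the controls and 41.6 and 44.9 CPM in the resistant libraries. Its groups did not overlap, and its log2 difference of 0.42 ± 0.19 (SE) did not pass the test (adjusted p = 0.406, edgeR). MAGEA2 (log2 0.47, adjusted p = 0.690) and MAGEA2B (log2 0.31, adjusted p = 0.899) share 93.2% and 85.2% of their 75-base reads with another gene, so their counts are uncertain. MAGEA8 (log2 0.48, adjusted p = 0.926) and MAGEC3 (log2 -0.49, adjusted p = 0.835) did not pass either.

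Of 10 other type II genes 7 passed the filter, with a median log2 difference of 0.01, and DESeq2 also called none of them. MAGEH1 stood at 3.57 and 2.61 CPM in the controls and 6.10 and 4.64 CPM in the resistant libraries, the reverse order of TRO. Its groups did not overlap, and its log2 difference of 0.80 ± 0.30 (SE) had an adjusted p of 0.293 (edgeR), the single one of the 7 with an unadjusted p below 0.05. MAGEF1 (log2 0.10, adjusted p = 0.867), NSMCE3, a subunit of the SMC5/6 complex (log2 0.01, adjusted p = 0.991), NDN (log2 -0.01, adjusted p = 0.995), MAGEE1 (log2 -0.30, adjusted p = 0.820) and MAGEL2 (log2 0.69, adjusted p = 0.626) did not pass.

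The other cancer-testis antigens gave 2 genes that fell, both at low levels like TRO and MAGEA1. Of 65 such genes 32 passed the filter, with a median log2 difference of -0.19, and 5 had an unadjusted p below 0.05, as had 3360 of the 24961 tested genes. DESeq2 called 3 of them lower, GAGE2A, SSX2 and SPANXC. GAGE2A fell from 2.32 and 2.62 CPM to 0.590 and 0.447 CPM, a log2 difference of -2.25 ± 0.36 (SE, adjusted p = 0.040, edgeR). SSX2 fell from 36 and 31 reads to 0 in both resistant libraries, at least 10.8-fold lower against a floor of 3 counts per library (adjusted p = 0.048). The call for GAGE2A was lost without either resistant library (adjusted p = 0.065 without replicate 1 and 0.207 without replicate 2), as was that for SSX2 (0.080 and 0.193). At 75 bases 70.3% of GAGE2A reads and 100% of SSX2 reads also occur in another gene, which for SSX2 is SSX2B. By these windows the SSX2 reads cannot be told apart from those of SSX2B. Reads that mapped to several copies were not counted, so the counts of GAGE2A and SSX2 are uncertain and may be too low. PAGE5 (log2 -0.20, adjusted p = 0.690), the most abundant of these genes, did not pass.

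**Figure D4:**
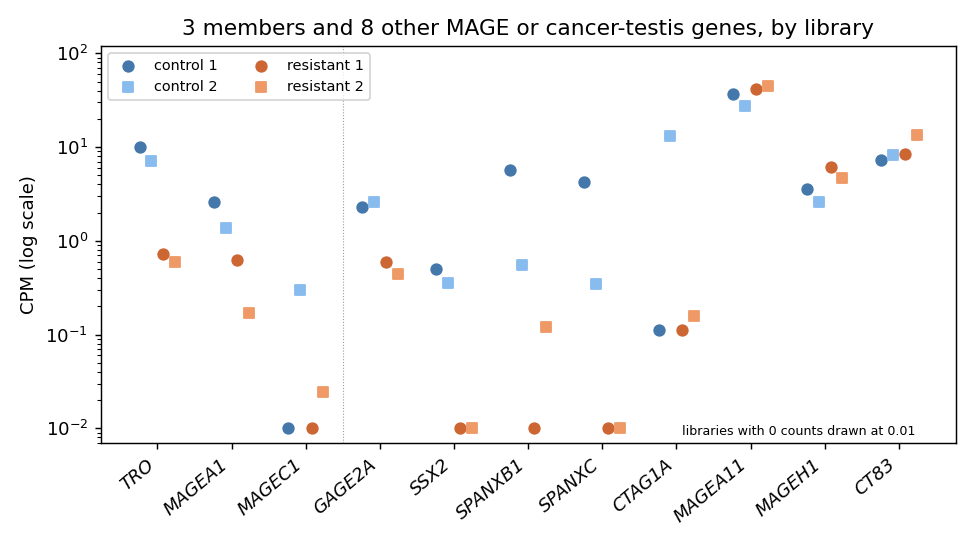
CPM in each library (log scale) of 3 members, left of the dotted line, and 8 other genes of the family or of the cancer-testis lists, with libraries without reads drawn as stated in the picture. TRO, MAGEA1, GAGE2A, SSX2, SPANXB1 and SPANXC are lower in both resistant libraries than in both controls. MAGEA11 and MAGEH1 are higher in both resistant libraries.

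PRAME has relatives among other leucine-rich repeat genes, most of them in a germ cell family on chromosome 1, and nearly all were below 1 CPM. Of 15 relatives 2 passed the filter and neither passed the test: LRRC14 (log2 -0.04, adjusted p = 0.962, edgeR) and PRAMEF12 (log2 -1.88, adjusted p = 0.433). Beside PRAME at 141 to 203 CPM, 14 of the 15 were below 1 CPM in every library.

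The proteins that MAGE and PRAME work with, and the machinery that keeps their promoters methylated, did not give a gene past the test. All 17 partner genes passed the filter, with a median log2 difference of 0.05, and 1 had an unadjusted p below 0.05 and was called higher by DESeq2, which called 4.99% of the genes it tested. It is EZH2, the methyltransferase through which PRAME represses retinoic acid targets, which stood at 68.9 and 64.4 CPM in the controls and 118 and 121 CPM in the resistant libraries (log2 0.84 ± 0.16 SE, adjusted p = 0.059 by edgeR and 0.0023 by DESeq2), and it was named after its values were seen. Of 33 genes of DNA methylation and germline gene repression, which also all passed the filter, the median was -0.08, and 1 had an unadjusted p below 0.05. That gene is TASOR, a subunit of the HUSH silencing complex, with a log2 difference of -0.80 (adjusted p = 0.123 by edgeR and 0.021 by DESeq2), and it too was named after its values were seen. The maintenance methyltransferase DNMT1 stood at 293 and 254 CPM in the controls and 258 and 220 CPM in the resistant libraries (adjusted p = 0.726, edgeR).

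HLA class I presents the peptides of these antigens, and none of its 15 listed genes passed the test, with a median log2 difference of 0.02 and 1 unadjusted p below 0.05. B2M, the light chain of class I, stood at 564 and 504 CPM in the controls and 433 and 453 CPM in the resistant libraries (log2 -0.27, adjusted p = 0.573, edgeR). The melanocyte differentiation antigens, the other group of shared melanoma antigens, summed to 5.33 and 6.33 CPM in the controls and 8.42 and 6.25 CPM in the resistant libraries over 10 genes. That is far below PRAME or MAGEA4 on the same scale, which is not corrected for length, and none of the 8 that passed the filter passed the test.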

How the data were processed

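PolyA RNA of 2 control and 2 resistant A375 libraries was sequenced. Each library has a deposited file of raw gene counts. Per the file headers they came from featureCounts 2.0.0 with GENCODE 42 on duplicate-marked alignments. By that program's defaults, strand was ignored, mates were counted singly, reads at several places or in several genes were dropped, and marked duplicates stayed in. The submitters' processing notes also name STAR, DESeq2 and GRCh38. The names of the resistant files carry other sample numbers than the labels, and files were assigned by the record that holds them. A deposited fold-change table that names no comparison, drug-treated libraries and glycan data were not analysed here.

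Genes were kept with filterByExpr (24961 of 62649; 62625 had a symbol), scaled by TMM and compared by the quasi-likelihood F test of edgeR, two-sided, with Benjamini-Hochberg adjustment over all genes tested and a threshold of 0.05 (R 4.3.3, edgeR 4.0.16, limma 3.58.1). DESeq2 1.42.0 was an alternative. CPM use TMM-scaled library sizes, with factors from 0.971 to 1.046. The floors of 3 counts, and the bound for SSX2 that rests on them, use the unscaled totals. The fit was tested on simulated data. Levels per kilobase use the exon length in the count files. Shared reads were counted as exact matches of read-length windows, both strands, among GENCODE 29 transcripts. The members and lists were chosen with earlier results of these data known. Named besides the members were all tested genes of the MAGE lists, and of the other lists the genes past the threshold and some of the 2 with the highest mean CPM, the 2 most alike genes of a member, and 3 tested neighbours on each side of TRO and MAGEA1. NGFR, EZH2, TASOR and the genes of the other observations were named after their values were seen.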

Additional observations from a re-analysis of the deposited data

How the results depend on the processing

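Each alternative left TRO and MAGEA1 at least 2-fold lower, and between 2 and 3 members were at least 2-fold different under all 11. The sign held in all 11 for MAGED1, TRO, MAGEA3 and MAGEA1 and changed under at least 1 for PRAME, MAGEA4, MAGEC2, MAGEA10 and MAGEA12, which all lie near no difference. Over all genes, 144 higher and 128 lower became 587 and 635 with DESeq2, 905 and 961 with no filter beyond 1 count, 94 and 82 with a mean of at least 1 CPM, and 33 and 31 with a replicate block. As each library was left out they ranged from 7 to 1146 and from 9 to 1020, both lowest without resistant replicate 2 and highest without control replicate 2. Of the listed genes that are no members, 3 passed the threshold (GAGE2A, SSX2 and the keratin KRT14), 8 with DESeq2, 11 with no filter, 1 with the replicate block (SPANXC, while GAGE2A, SSX2 and KRT14 missed it at adjusted p = 0.095, 0.114 and 0.091) and 0 to 15 as each library was left out. SSX2 also missed it with upper quartile factors (adjusted p = 0.056) and with library size alone (0.0501). Same-numbered libraries did not deviate together: their deviations had a correlation of 0.0022 over 10089 genes. This correlation cannot tell how the samples were handled. Halving control replicate 1 gave 168 higher and 157 lower genes. The median share of positions that members share with other genes, 0.473% at 75 bases, was 1.32% at 50, 0.189% at 100 and 0% at 150. With 2 libraries a group, a fitted coefficient of variation of 25.5% limits what can be called.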

Other observations

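Of the cancer-testis genes beside the MAGE family, CTAG1A, SPANXB1 and SPANXC were highest by far in a single control library. All genes of this paragraph were chosen after their values were seen. CTAG1A, which encodes the antigen NY-ESO-1, held 1152 reads in control replicate 2 and 8, 8 and 13 in control replicate 1 and the resistant libraries (adjusted p = 0.189, edgeR). Of its 75-base reads 87.8% also occur in CTAG1B, which held 4 to 14 reads. SPANXB1, a sperm nuclear antigen, held 404 and 48 reads in the controls against 0 and 10 after resistance (adjusted p = 0.106). SPANXC held 304 and 30 reads in the controls but 0 in both resistant libraries (adjusted p = 0.079 by edgeR and 0.031 by DESeq2), and 67.7% of its reads are shared with other genes. CT83, another X-linked antigen, held 516 and 706 reads in the controls against 598 and 1108 after resistance (adjusted p = 0.499).

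Of the keratinocyte markers, KRT14 fell from 1.62 and 2.08 CPM to 0.309 and 0.314 CPM (log2 -2.56, adjusted p = 0.036, edgeR), while the 8 markers summed to 49.2 and 63.1 CPM in the controls and 58.7 and 89.8 CPM in the resistant libraries, most of it from KRT10. The call for KRT14 was lost without either resistant library (adjusted p = 0.079 without replicate 1 and 0.186 without replicate 2). Whether it bears on TRO or MAGEA1 was not tested.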
